A study of Homo sapiens with 12 samples.

Results

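The study names the cells used here as NCI-H520, a human lung squamous cell carcinoma line. The 37 genes of the mitochondrial chromosome were followed as all 37 of the 58302 gene rows whose symbol starts with MT-. They comprise 13 protein-coding genes, 2 rRNAs and 22 tRNAs. The 13 are called mRNAs below and counted by gene, although some of them share an mRNA. The cells carried either a stable lentiviral *L1-FGGY* construct (OV-L1-FGGY), a chimeric transcript that runs from an L1 element into *FGGY*, or an empty vector (OV-CTRL), and each of 4 groups held 3 libraries. These were OV-L1-FGGY cells given 0.2% DMSO, the same cells given 10 μM ML355 (an inhibitor of the lipoxygenase 12-LOX), cells labelled OV-L1-FGGY given 450 μM NVR (a reverse transcriptase inhibitor used against L1), and a control with 0.2% DMSO whose label, CTRL with DMSO, was read as OV-CTRL. Its columns in the count table are named DMSO alone and were assigned to it because the other DMSO group has columns under its own full titles. ML355 and NVR were given from DMSO stocks by a medium change 5 h after seeding, and the sources used here give no length of treatment. Each vector is represented by 1 cell line, and whether a line came from a single clone is not stated. The labels do not say whether the 3 libraries of a group came from separate cultures, so that p-values measure the spread between libraries only.

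Human mitochondrial DNA is a small circle transcribed from both strands into long precursors by the polymerase POLRMT with the factors TFAM and TFB2M. Most mRNAs and rRNAs are flanked by tRNAs, and cutting the tRNAs out of the precursor releases them. The mRNAs encode core subunits of respiratory complexes I, III and IV and of the ATP synthase (complex V), the rRNAs build the mitochondrial ribosome, and every other subunit is made from nuclear genes. LRPPRC with SLIRP stabilises most of the mRNAs, and the transcripts receive short poly(A) tails, except for that of MT-ND6, which is known to have none or a very short one.

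The layout of the genes decides what a count per gene can show. Chromosome M of hg38 has 16569 bases, of which 92.7% lie in a gene. The 2 rRNAs, 12 of the mRNAs and 14 of the tRNAs are on the plus strand of the reference, and MT-ND6 and 8 tRNAs on the minus strand. The stretch from position 3215 to 3321 of hg38 chromosome M is shown as an example of a tRNA that sits directly between an rRNA and an mRNA. Capitals mark MT-TL1, a leucine tRNA, with the last bases of MT-RNR2 before it and the first bases of MT-ND1 after it:
MT-TL1 and flanks: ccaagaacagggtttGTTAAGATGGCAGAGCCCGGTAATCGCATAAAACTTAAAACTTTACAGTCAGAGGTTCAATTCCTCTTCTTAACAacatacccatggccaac

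MT-ATP8 and MT-ATP6 share 46 bases (8527 to 8572), and MT-ND4L and MT-ND4 share 7 (10760 to 10766). Each pair is read from 1 mRNA, and a read over the shared bases belongs to both genes. How such reads were assigned is not stated. The shared bases are in capitals below, and outside them lie 161 of the 207 bases of MT-ATP8 and 290 of the 297 of MT-ND4L:
MT-ATP8 end and MT-ATP6 start: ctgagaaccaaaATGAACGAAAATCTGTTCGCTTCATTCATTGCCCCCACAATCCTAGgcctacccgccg
MT-ND4L end and MT-ND4 start: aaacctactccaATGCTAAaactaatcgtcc

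Many of the mRNAs end without a full stop codon, which the poly(A) tail completes. This was the case for 6 of the 13 genes, while 7 carried all 3 bases of a stop. The last 15 bases of the annotated gene are given for the mRNAs with the largest and the smallest fall after ML355. The ends of the RNAs were not measured. Each sequence is in the direction of its own transcript, with the stop letters in capitals:
MT-CYB end: tactcaaatgggccT
MT-ND6 end: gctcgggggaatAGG

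Of the tRNAs, 20 of 22 had no count in any of the 12 libraries, which allows up to 0.111 CPM in the largest library and up to 0.185 CPM in the smallest (3 counts, for counting error only). Each of these 20 had neighbours within 31 bases on both sides. The other two, MT-TF (phenylalanine) and MT-TP (proline), border the 1122 bases of the control region that hold no gene. MT-TF had 22 counts in all, of which 15 were in replicate 3 of ML355. MT-TP (15956 to 16023, minus strand) had 199 to 1066 counts and was the only tRNA that could be tested, so it is printed with its flanks, the tRNA in capitals:
MT-TP: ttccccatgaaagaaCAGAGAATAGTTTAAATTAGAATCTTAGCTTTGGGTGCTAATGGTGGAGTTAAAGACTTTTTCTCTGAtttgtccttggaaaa

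Over all genes, the libraries formed 2 sets. Pearson correlations of log2 CPM across genes were at least 0.932 within the set of OV-L1-FGGY with DMSO and ML355 and within that of the libraries labelled NVR and OV-CTRL, and at most 0.774 across the sets. *FGGY* was at 287 ± 22.04 CPM with DMSO and 318 ± 47.8 with ML355, but at 4.25 ± 0.523 in the libraries labelled NVR, against 3.41 ± 0.418 in OV-CTRL (SD, n = 3 each). *FGGY* thus goes against the label of the NVR libraries, which are compared with both DMSO groups below, and what separates vector, cell line and treatment in them cannot be told apart. The squamous markers also differed between the sets. SOX2 had no count in OV-L1-FGGY with DMSO or ML355 and stood at 16.02 CPM in OV-CTRL, KRT6A and DSG3 had no count in any group, and TP63 was at most 3.03 CPM on average. The 10 squamous markers summed to 931 to 969 CPM with DMSO, 3130 to 4800 with ML355, 14.3 to 20.8 in the libraries labelled NVR and 21.7 to 24.8 in OV-CTRL, KRT17 being the most abundant of them in the OV-L1-FGGY groups with DMSO (944 CPM) and ML355 (4236 CPM). The 4 fibroblast markers summed to 341 to 359 CPM with DMSO, 112 to 122 with ML355, 19.4 to 22.3 in the libraries labelled NVR and 20.1 to 25.5 in OV-CTRL, where DCN had no count. The 4 neuroendocrine markers summed to at most 0.841 CPM with DMSO and 0.788 with ML355, to 16.4 to 23.7 in the libraries labelled NVR and to 5.2 to 7.57 in OV-CTRL. The 4 adenocarcinoma markers summed to at most 0.789 CPM with DMSO and 0.578 with ML355, to 7.37 to 10.5 in the libraries labelled NVR and to 4.46 to 5.34 in OV-CTRL, and the 3 leukocyte markers to 0.655 to 1.79, 2.21 to 3.71, at most 0.165 and at most 0.0384 CPM in the same order, with PTPRC and CD3E at 0 in the last 2 groups. The part of these differences in the results below was not tested, nor was the identity of the cells in either set.

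A much smaller share of the counts lay on mitochondrial genes after ML355 than in any other group, with the mRNAs lower and the rRNAs higher than in DMSO. The 37 genes took 6.25%, 5.79% and 6.52% of all counts in OV-L1-FGGY with DMSO, and 1.57%, 1.64% and 1.46% with ML355. The libraries labelled NVR had 6.69%, 6.74% and 6.19%, and OV-CTRL 4.51%, 4.21% and 4.27%. The ML355 libraries were below all others, OV-CTRL lay between, and OV-L1-FGGY with DMSO overlapped with the libraries labelled NVR.

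The 13 mRNAs held 5.78 ± 0.356% of the counts with DMSO and 0.728 ± 0.0956% with ML355. They held 5.09 ± 0.319% in the libraries labelled NVR and 3.74 ± 0.127% in OV-CTRL (SD, n = 3 each). The rRNAs held 0.402 ± 0.0158% with DMSO, 0.827 ± 0.0208% with ML355, 1.45 ± 0.0556% in the libraries labelled NVR and 0.588 ± 0.0350% in OV-CTRL (SD, n = 3 each). For each count on an mRNA there were 0.0669 to 0.0730 counts on an rRNA with DMSO, 0.981 to 1.28 with ML355, 0.260 to 0.309 in the libraries labelled NVR and 0.154 to 0.162 in OV-CTRL. None of these 4 ranges overlapped. The shares are of counts per library, and in bulk RNA a change in the number of cells of a kind and in the RNA per cell cannot be told apart. The kit that the labels name captures poly(A) RNA, so that counts of the rRNAs and of MT-ND6 also depend on their tails. The tails were not measured.

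**Figure D1:**
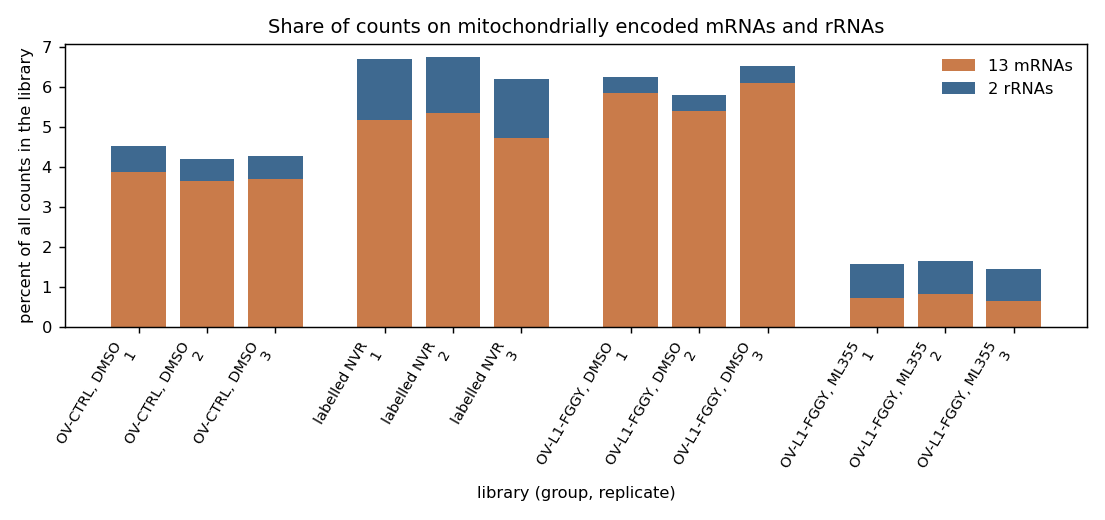
Percent of all counts of a library (vertical axis, from 0) on the 13 mRNAs (orange) and the 2 rRNAs (blue), 1 bar per library. The mRNA share was 0.637% to 0.828% in the ML355 libraries and at least 3.64% in every other library, while the rRNA share was lowest in OV-L1-FGGY with DMSO.

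All 13 mRNAs were lower after ML355, against 23.5% of the 17849 genes tested (quasi-likelihood test of edgeR, with an adjusted p under 0.01 by Benjamini-Hochberg). Both rRNAs were higher, against 21.3% of all genes, and all 16 members tested were called in one direction or the other, against 44.8%. The median log2 fold change of the 13 mRNAs was -3.23, and that of all genes tested was 0. For none of these 15 genes did the 2 groups overlap, but the share of all genes without overlap was not worked out, so this count has no background. The counts of 13 and 2 were the same when the fit held only these 2 groups, without the NVR and OV-CTRL libraries. Levels below are CPM with TMM scaling.

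The sole complex III member, MT-CYB (cytochrome b, the subunit that carries quinol oxidation), fell most. It was at 3816, 3164 and 3663 CPM with DMSO and at 93.0, 113 and 154 CPM with ML355. The log2 fold change was -4.89 (standard error, SE, 0.19, adjusted p = 2.32e-11 by edgeR), or 29.6-fold lower. Not one ML355 library came near the DMSO range.

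The 3 complex IV mRNAs encode the catalytic core of cytochrome c oxidase. MT-CO1, which binds the heme groups and CuB of the oxygen-reducing site, was at 17160, 16660 and 18440 CPM with DMSO and at 2824, 2823 and 2224 CPM with ML355. Its log2 fold change was -2.73 (SE 0.15, edgeR adjusted p = 8.07e-10), the smallest fall of the 3. MT-CO2, which takes up electrons from cytochrome c, went from 6563, 6240 and 6788 CPM to 399, 516 and 331 CPM, a log2 fold change of -3.97 (SE 0.21, edgeR adjusted p = 5.81e-10). MT-CO3, a structural core subunit, fell from 6532 ± 268 to 476 ± 57.6 CPM (SD, n = 3), a log2 fold change of -3.78 (SE 0.16, edgeR adjusted p = 6.9e-11).

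The complex V mRNAs fell to a like extent as MT-CO2 and MT-CO3. MT-ATP6, the subunit that forms the proton path beside the rotor ring, was at 3732, 3180 and 3500 CPM with DMSO and at 271, 298 and 232 CPM with ML355, a log2 fold change of -3.70 (SE 0.17, edgeR adjusted p = 1.65e-10). MT-ATP8, a small membrane subunit, had only 22, 20 and 17 counts with DMSO and 2, 0 and 2 with ML355. Scaled for library size, the ratio of the summed counts, 4 against 59, was 0.065 (95% interval 0.0171 to 0.175, counting error only; edgeR adjusted p = 7.23e-05).

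The 7 complex I mRNAs all encode subunits of the membrane arm, and they ranged widely. MT-ND1, at the junction with the peripheral arm near the quinone site, was at 3760, 3217 and 3882 CPM with DMSO and at 326, 489 and 343 CPM with ML355. Its log2 fold change was -3.23 (SE 0.17, edgeR adjusted p = 7.14e-10). MT-ND2, one of the proton-pumping subunits, was at 2936, 2381 and 2936 CPM against 289, 384 and 317 CPM, a log2 fold change of -3.06 (SE 0.16, edgeR adjusted p = 6.63e-10). MT-ND3, which reaches the quinone site with a loop, was at 1026, 992 and 1039 CPM against 88.1, 129 and 91.5 CPM, a log2 fold change of -3.31 (SE 0.19, edgeR adjusted p = 1.01e-09). No ML355 library overlapped with DMSO for any of the 3, a count that, as above, has no background over all genes.

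MT-ND4 and MT-ND5, the other proton-pumping subunits, fell less. MT-ND4 was at 6113, 4912 and 6071 CPM with DMSO and at 1859, 1744 and 1631 CPM with ML355, a log2 fold change of -1.71 (SE 0.14, edgeR adjusted p = 3.91e-08). MT-ND5 was at 1428, 1128 and 1515 CPM against 445, 471 and 452 CPM, a log2 fold change of -1.57 (SE 0.14, edgeR adjusted p = 1.85e-07). Together MT-ND4 and MT-ND5 made up 12.2% to 13.8% of the mRNA counts with DMSO and 27.9% to 31.5% with ML355.

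MT-ND4L, read from the same mRNA as MT-ND4, was at 942, 726 and 953 CPM with DMSO and at 168, 201 and 112 CPM with ML355, a log2 fold change of -2.45 (SE 0.30, edgeR adjusted p = 3.66e-06). MT-ND6, the only mRNA of the minus strand, was at 564, 620 and 646 CPM with DMSO and at 261, 307 and 198 CPM with ML355. Its log2 fold change of -1.25 (SE 0.18, edgeR adjusted p = 1.68e-05) was the smallest among the mRNAs. Its share of the mRNA counts went from 1.03% to 1.25% with DMSO to 2.995% to 3.86% with ML355. The counting is not stated to use strand, so that antisense RNA across MT-ND6 or MT-TP cannot be told apart from the RNA of the gene itself.

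The 2 rRNAs lie first in the direction of plus-strand transcription. MT-RNR2 (16S) was at 3179, 3076 and 3357 CPM with DMSO and at 7973, 7077 and 7279 CPM with ML355, 2.32-fold higher (log2 1.22, SE 0.14, edgeR adjusted p = 1.99e-06). MT-RNR1 (12S) was at 471, 536 and 519 CPM against 835, 724 and 1216 CPM, 1.82-fold higher (log2 0.86, SE 0.19, edgeR adjusted p = 9.18e-04). Both ranges lay above those of DMSO, with replicate 3 of ML355 the highest for MT-RNR1. For 100 counts of MT-RNR2 there were 105 to 118 of the neighbouring MT-ND1 with DMSO and 4.09 to 6.91 with ML355.

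MT-TP, which lies on the strand opposite to MT-CYB and beyond it, was at 47.0, 50.01 and 53.7 CPM with DMSO and at 13.01, 14.2 and 10.5 CPM with ML355. Its log2 fold change was -2.0 (SE 0.14, edgeR adjusted p = 7.82e-09). For 1000 counts of MT-CYB there were 12.3 to 15.8 of MT-TP with DMSO and 68.1 to 140 with ML355. The fall of MT-TP was smaller than that of MT-CYB in every ML355 library.

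**Figure D2:**
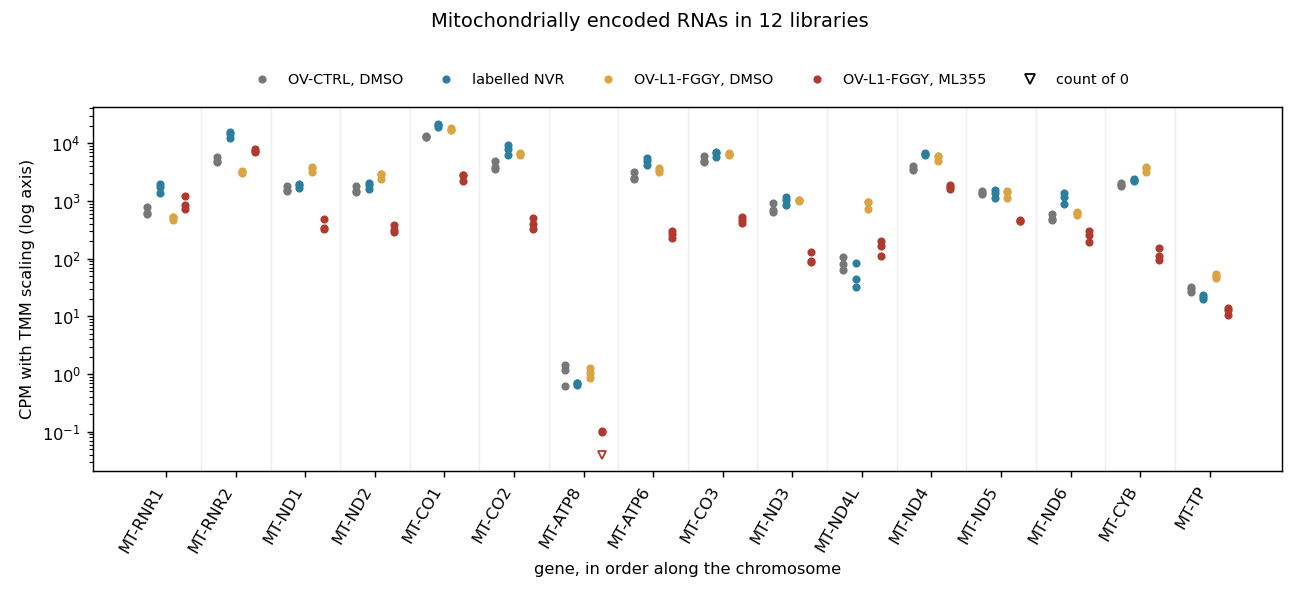
CPM with TMM scaling (log axis) of the 16 tested genes in chromosome order, 1 point per library and 1 colour per group, with an open triangle for a count of 0. The red ML355 points lie below the yellow OV-L1-FGGY DMSO points for all 13 mRNAs and MT-TP and above them for MT-RNR1 and MT-RNR2, and the grey OV-CTRL and blue NVR-labelled points of MT-ND4L lie far below the yellow ones.

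The size of the fall varied between genes that lie close together. MT-CYB and MT-ND5, separated on the chromosome by MT-ND6 and MT-TE, had the largest fall and one of the smallest, and the counts of MT-CYB per 100 of MT-ND5 went from 242 to 281 with DMSO to 20.9 to 34.0 with ML355. Over the 13 mRNAs, which share libraries and precursors, Spearman's rho of the log2 fold change was 0.24 with gene order, 0.24 with gene length, -0.24 with GC content and -0.31 with the level per kilobase in DMSO. The 6 mRNAs without a full stop codon ran from -4.89 to -1.71 (median -3.27) and the 7 with one from -3.97 to -1.25 (median -2.73).

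**Figure D3:**
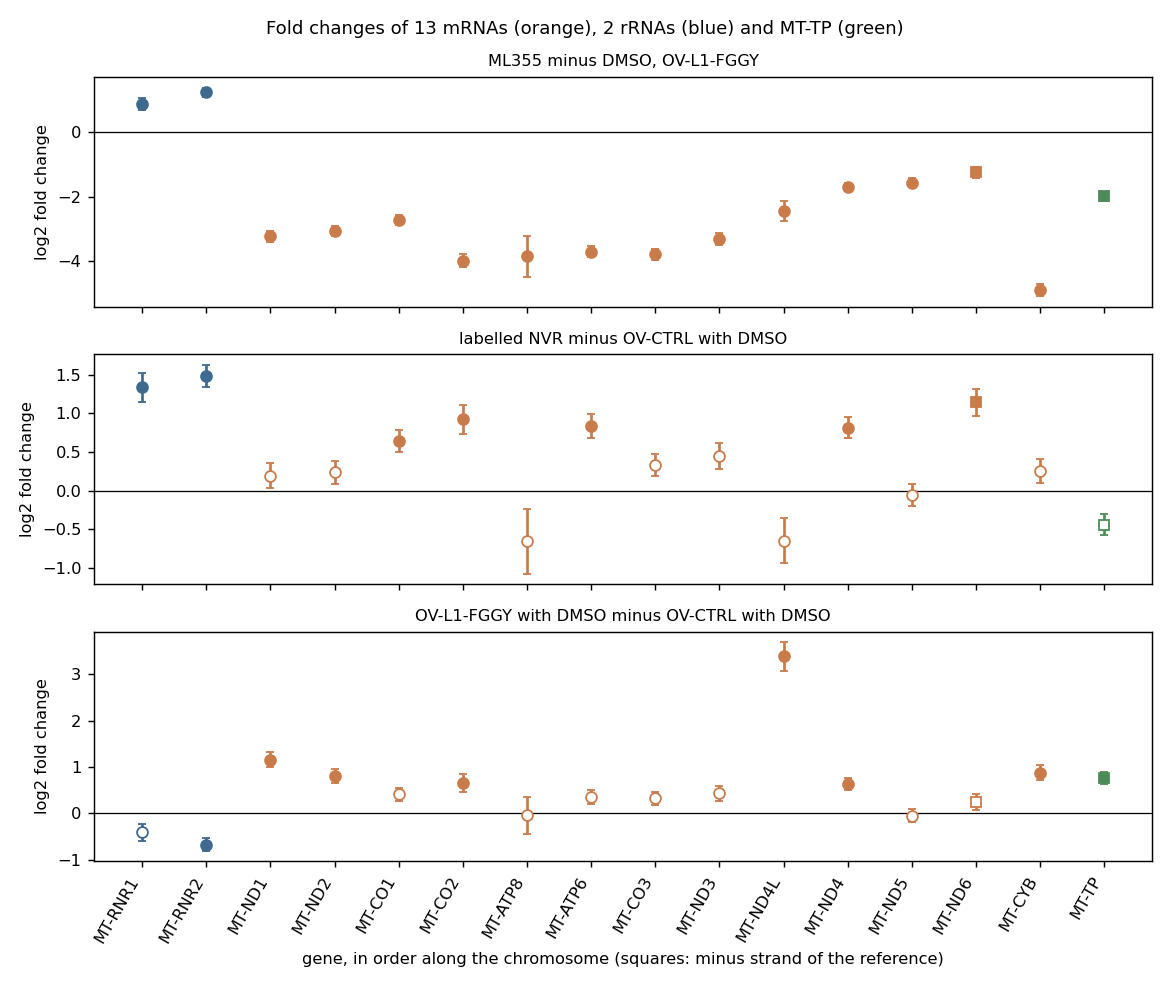
Log2 fold change with its standard error (bars) of the 16 tested genes in chromosome order, for 3 comparisons with their own vertical scales. Filled symbols passed an edgeR adjusted p under 0.01, squares are genes of the minus strand. In the top panel the rRNAs stand at 0.86 and 1.22 and the mRNAs between -4.89 and -1.25.

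Set against OV-CTRL with DMSO, whose *FGGY* level is nearest to theirs, the libraries labelled NVR had higher rRNAs and 5 higher mRNAs, against 14.5% of all genes tested that were higher. None of the 13 mRNAs was lower, against 15.3%, and 7 of the 16 members tested were called, against 29.8% (edgeR). The median log2 fold change of the mRNAs was 0.33, beside 0 for all genes. Every direction here rests on the label of these libraries.

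MT-RNR2 was at 14650, 12550 and 15680 CPM in the libraries labelled NVR and at 5667, 4882 and 4770 CPM in OV-CTRL, a log2 fold change of 1.48 (SE 0.14, edgeR adjusted p = 7.67e-07). MT-RNR1 was at 1738, 1366 and 1985 CPM against 797, 630 and 594 CPM, a log2 fold change of 1.33 (SE 0.19, edgeR adjusted p = 4.35e-05). Neither pair of ranges overlapped, but the share of all genes without overlap was not worked out here either.

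Among the mRNAs, MT-ND6 rose most. It was at 1153, 871 and 1361 CPM in the libraries labelled NVR and at 583, 460 and 494 CPM in OV-CTRL, a log2 fold change of 1.14 (SE 0.17, edgeR adjusted p = 9.26e-05). MT-CO2 was at 7903, 6289 and 9335 CPM against 4992, 3890 and 3534 CPM, a log2 fold change of 0.92 (SE 0.19, edgeR adjusted p = 9.66e-04). MT-ATP6 and MT-ND4 differed by 0.84 and 0.81 on the log2 scale (edgeR adjusted p = 4.63e-04 and 1.59e-04).

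MT-CO1 was at 20400, 21720 and 19180 CPM against 12990, 12950 and 13270 CPM, a log2 fold change of 0.64 (SE 0.14, edgeR adjusted p = 0.00171). Without replicate 2 of OV-CTRL its adjusted p was 0.0114, and in a fit of these 2 groups alone 0.0123. MT-ND5 was at 1372, 1552 and 1122 CPM against 1340, 1369 and 1497 CPM (log2 fold change -0.06, edgeR adjusted p = 0.774), so that the ranges overlapped. MT-ND1, MT-ND2 and MT-CYB had log2 fold changes of 0.20 to 0.25 and did not pass (edgeR adjusted p = 0.341, 0.217 and 0.212), nor did MT-CO3 and MT-ND3 (edgeR adjusted p = 0.0756 and 0.0407). MT-ND3 passed without replicate 2 of the libraries labelled NVR (adjusted p = 0.00992) and without replicate 1 of OV-CTRL (adjusted p = 0.00742).

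MT-ND4L was at 43.8, 82.9 and 32.9 CPM in the libraries labelled NVR and at 62.7, 79.7 and 108 CPM in OV-CTRL. The log2 fold change was -0.64 (SE 0.29, edgeR adjusted p = 0.0785) and did not pass. Without replicate 2 of the libraries labelled NVR it was -1.12 and passed (adjusted p = 0.00262). MT-TP was at 21.9, 23.7 and 19.7 CPM against 32.3, 29.8 and 26.4 CPM, a log2 fold change of -0.44 (edgeR adjusted p = 0.0127) with ranges that did not overlap. It passed without replicate 2 of the libraries labelled NVR (adjusted p = 0.00872) and without replicate 3 of ML355 (adjusted p = 0.00796). MT-ATP8, with 14, 19 and 12 counts against 28, 16 and 38, had a ratio of 0.635 (95% interval 0.431 to 0.924, counting error only; edgeR adjusted p = 0.219).

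Set against OV-L1-FGGY with DMSO, the group with the same vector by label, 4 mRNAs were lower and 2 higher, against 35.4% and 38.2% of all genes tested. Of the 16 members tested 9 were called, against 73.6% of all genes in either direction. Both rRNAs were higher, MT-RNR1 by 1.74 and MT-RNR2 by 2.16 on the log2 scale (edgeR adjusted p = 3.35e-07 and 7.27e-10). The lower mRNAs were MT-ND4L (log2 fold change -4.03), MT-ND1 (-0.97), MT-CYB (-0.63) and MT-ND2 (-0.57), with edgeR adjusted p = 6.14e-09, 3.87e-05, 0.00168 and 0.00262. MT-TP was lower too (-1.21, edgeR adjusted p = 3.05e-07). MT-ND2 did not pass without replicate 1 or without replicate 3 of OV-L1-FGGY with DMSO (adjusted p = 0.0134 and 0.0128).

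The higher mRNAs were MT-ND6 (log2 fold change 0.89, edgeR adjusted p = 1.94e-04) and MT-ATP6 (0.48, edgeR adjusted p = 0.0085). The call of MT-ATP6 was lost in 7 of the 12 fits that left out 1 library, namely without any replicate of OV-L1-FGGY with DMSO, replicate 1 of ML355, replicate 1 or 3 of the libraries labelled NVR, or replicate 2 of OV-CTRL (adjusted p = 0.012 to 0.0439), and with a replicate block (adjusted p = 0.0108). The median over the 13 mRNAs was 0.00, beside 0.08 for all genes. This comparison, that of ML355 and that of the vectors share the OV-L1-FGGY DMSO libraries, and both comparisons with OV-CTRL share its libraries, so that their values are not independent of each other.

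The difference between the effect of ML355 (against OV-L1-FGGY with DMSO) and that of the libraries labelled NVR (against OV-CTRL) was tested in the same fit. It was below 0 for all 13 mRNAs, against 16.8% of all genes, with a median of -3.38, and for MT-TP, so that 14 of 16 members were called, against 34.1% in either direction. For the rRNAs it was -0.47 for MT-RNR1 and -0.27 for MT-RNR2 (SE 0.26 and 0.19, edgeR adjusted p = 0.155 and 0.273), and neither passed. The doses, 10 μM and 450 μM, and the *FGGY* levels of the 2 sets differ as well.

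The *L1-FGGY* line had 6 higher mRNAs and no lower one, against 32.5% and 36.2% of all genes tested, and 1 lower rRNA (edgeR). The median over the mRNAs was 0.43, that of all genes -0.11. Of the 16 members tested 8 were called, while 68.7% of all genes were called in either direction, and the vector and the line cannot be told apart.

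MT-ND4L had the largest fold change. It was at 942, 726 and 953 CPM in OV-L1-FGGY and at 62.7, 79.7 and 108 CPM in OV-CTRL, 10.5-fold higher (log2 3.39, SE 0.31, edgeR adjusted p = 4.38e-08). Its partner on the same mRNA, MT-ND4, was 1.55-fold higher (log2 0.63, SE 0.13, edgeR adjusted p = 4.03e-04), with 6113, 4912 and 6071 CPM against 4004, 3586 and 3453 CPM. For 100 counts of MT-ND4 there were 15.4, 14.8 and 15.7 of MT-ND4L in OV-L1-FGGY and 1.57, 2.22 and 3.12 in OV-CTRL. The ratio was 9.01, 11.5 and 6.84 with ML355 and 0.657, 1.27 and 0.529 in the libraries labelled NVR, so that it followed the 2 sets of libraries. MT-ND4L borders MT-TR without a gap and shares bases with MT-ND4. Its count therefore depends on how reads that span genes were assigned, which is not stated. Whether this had a part in the 10.5-fold difference was not tested.

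MT-ND1 was at 3760, 3217 and 3882 CPM against 1837, 1550 and 1469 CPM, a log2 fold change of 1.16 (SE 0.16, edgeR adjusted p = 6.45e-06). MT-CYB and MT-ND2 were higher by 0.88 and 0.81 on the log2 scale (edgeR adjusted p = 9.84e-05 and 1.5e-04). MT-CO2 was higher by 0.66 (edgeR adjusted p = 0.0043), a call that was lost without replicate 1 or 3 of OV-L1-FGGY with DMSO and without replicate 2 or 3 of OV-CTRL (adjusted p = 0.0134 to 0.025).

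MT-CO1 missed the threshold at 0.41 (edgeR adjusted p = 0.0136) and passed without replicate 2 or replicate 3 of the libraries labelled NVR (adjusted p = 0.0076 and 0.00771), with DESeq2 (adjusted p = 0.00138) and with limma voom (adjusted p = 0.00438). MT-ND3, MT-ATP6 and MT-CO3 had log2 fold changes of 0.32 to 0.43 (edgeR adjusted p = 0.0296, 0.0468 and 0.0505), and the first 2 passed without replicate 1 of OV-CTRL (adjusted p = 0.00365 and 0.00821). MT-ND5, MT-ND6 and MT-ATP8 lay between -0.05 and 0.25 (edgeR adjusted p = 0.767, 0.193 and 0.923).

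MT-RNR2 was lower, at 3179, 3076 and 3357 CPM against 5667, 4882 and 4770 CPM, a log2 fold change of -0.67 (SE 0.14, edgeR adjusted p = 3.19e-04). MT-RNR1 was at -0.40 (edgeR adjusted p = 0.057), with ranges that did not overlap either. MT-TP was 1.70-fold higher (log2 0.77, edgeR adjusted p = 4.73e-05). MT-ND1 counts per 100 of MT-RNR2 were 105 to 118 in OV-L1-FGGY and 30.8 to 32.4 in OV-CTRL.

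Per kilobase of gene, MT-CO1 had the highest mean level in 3 of the 4 groups, at 11300 ± 595 CPM per kilobase in OV-L1-FGGY with DMSO, 13250 ± 824 in the libraries labelled NVR and 8476 ± 113 in OV-CTRL. In the libraries labelled NVR it overlapped with MT-CO2 (11470 ± 2230), so that their order there is within the spread. In OV-L1-FGGY with DMSO it was followed by MT-CO2 (9547 ± 403), MT-CO3 (8332 ± 342) and MT-ATP6 (5096 ± 407), all without overlap between neighbours (SD, n = 3). MT-ND4 (4135 ± 495) overlapped with MT-ND1 (3786 ± 370), and MT-CYB, MT-ND3, MT-ND4L and MT-ND2 overlapped in turn. MT-ND6 (1161 ± 80.2) and MT-ND5 (749 ± 112) were the lowest mRNAs apart from MT-ATP8, at 5.11 ± 0.979 CPM per kilobase. MT-ATP8 is read from the same mRNA as MT-ATP6, so that its count per kilobase is not a level of that mRNA.

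With ML355 the order was another. MT-RNR2 was first at 4774 ± 301 CPM per kilobase, before MT-CO1 (1701 ± 224) and MT-ND4 (1266 ± 82.7), which overlapped with MT-RNR1 (969 ± 271). MT-CO2 (607 ± 137), MT-CO3 (607 ± 73.4), MT-ND4L, MT-ND6, MT-ND1, MT-ATP6, MT-ND2, MT-ND3 and MT-ND5 followed, each overlapping with the next, and MT-CYB lay below them at 105 ± 27.1 CPM per kilobase (SD, n = 3). MT-ND4L held rank 9 of 15 with DMSO and 7 with ML355, and rank 14 in both other groups, at 179 ± 88.5 and 281 ± 76.7 CPM per kilobase. MT-ND4, on the same mRNA, held ranks 5 (DMSO), 3 (ML355), 6 (labelled NVR) and 6 (OV-CTRL). The count of MT-ND4L per kilobase is thus not a level of that mRNA.

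Copies of mitochondrial DNA in the nuclear genome can compete for reads with the members. Of 404 such pseudogenes matched by symbol, 12 were tested and 10 reached a mean of 1 CPM, with 90.7% to 98.6% identity to the gene they copy. MTATP6P1 (chromosome 1, 633696 to 634376, 98.5% identical to MT-ATP6 over 681 bases) held the most counts, at 9929 to 14433 in OV-L1-FGGY with DMSO, 821 to 1359 with ML355, 3332 to 4419 in the libraries labelled NVR and 2411 to 2932 in OV-CTRL. Its log2 fold change after ML355 was -3.42, beside -3.70 for MT-ATP6, and between the vectors it was 2.51, beside 0.35 (edgeR adjusted p = 8.58e-10 and 2.74e-09 for MTATP6P1).

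Per 1000 counts of MT-ATP6, MTATP6P1 had 155 to 208 counts with DMSO and 186 to 235 with ML355, against 33.7 to 39.4 in the libraries labelled NVR and 37.4 to 42.7 in OV-CTRL. This ratio therefore parted the 2 sets of libraries, as did that of MT-ND4L to MT-ND4. MTCO1P12, which copies MT-CO1 on the same stretch of chromosome 1, had 4.64 to 5.92 counts per 1000 of MT-CO1 with DMSO and 6.91 to 8.83 in the other 3 groups, and did not part the sets. MTND4P12 per 1000 of MT-ND4 did, with 2.17 to 2.57 (DMSO), 1.03 to 4.13 (ML355), 0.398 to 0.901 (labelled NVR) and 0.338 to 0.556 (OV-CTRL). MTCO2P12 per 1000 of MT-CO2 did not, since 1.27 to 6.29 with ML355 overlapped with 0.659 to 1.55 in the libraries labelled NVR. Of the 12 tested, 10 were lower after ML355 and none was higher, beside 23.5% and 21.3% of all genes. All 404 together summed to 0.454% to 1.54% of the counts on the members, rRNAs included. Those with counts copy protein-coding genes, so that reads on nuclear copies of the rRNAs are not in this sum.

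**Figure D4:**
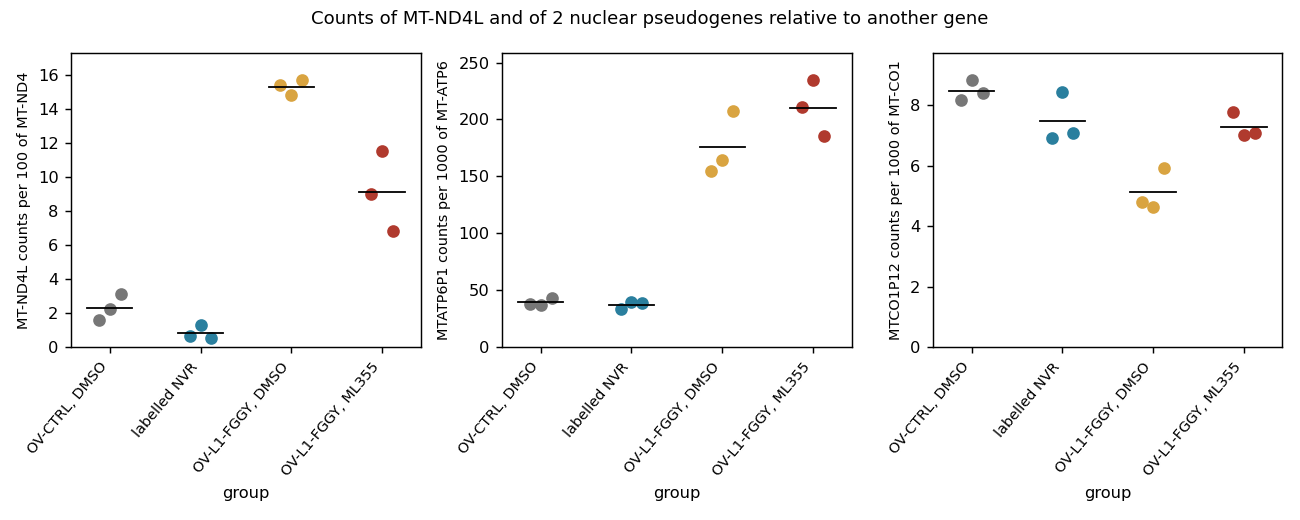
Counts of MT-ND4L per 100 of MT-ND4 (left), of MTATP6P1 per 1000 of MT-ATP6 (middle) and of MTCO1P12 per 1000 of MT-CO1 (right), each axis from 0, with 1 point per library and a line at the group mean. The left and middle ratios are higher in both OV-L1-FGGY groups with DMSO and ML355 (at least 6.84 and 155) than in the libraries labelled NVR and OV-CTRL (at most 3.12 and 42.7), and the right ratio is not split in this way.

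Most nuclear mRNAs for subunits of complexes I to V did not pass the test after ML355. Of 78, 5 were lower and 15 higher, beside 23.5% and 21.3% of all genes, with a median log2 fold change of 0.23. In complex III, where MT-CYB fell, none of the 9 nuclear mRNAs was lower and 4 were higher, among them UQCRC2, a core subunit (0.98, edgeR adjusted p = 3.13e-07), and CYC1, cytochrome c1 (0.79, edgeR adjusted p = 2.36e-04). In complex IV, 1 of 11 passed, COX6B1 at 0.97 (edgeR adjusted p = 0.00317). In complex I, 8 of 37 were higher and 1 lower, with the smallest adjusted p for NDUFV2 (2.65, edgeR adjusted p = 2.1e-06) and NDUFB5 (0.73, edgeR adjusted p = 4.91e-05).

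In complex V, ATP5F1A, the catalytic-ring subunit alpha, and ATP5PB of the peripheral stalk were lower (log2 fold changes -0.98 and -0.70, edgeR adjusted p = 6.2e-07 and 3.77e-05), 3 of 17 being lower and 1 higher. Of the 4 subunits of complex II, which has no mitochondrially encoded member, SDHC was lower (-0.43, edgeR adjusted p = 0.00166) and SDHD higher (0.47, edgeR adjusted p = 0.00468).

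In the NVR-labelled libraries relative to OV-CTRL, 19 of the 78 were higher and 1 lower, beside 14.5% and 15.3% of all genes (median 0.50). In complex IV, 10 of 11 nuclear subunits were higher, among them COX7A2 (0.93, edgeR adjusted p = 2.3e-04) and COX6A1 (1.45, edgeR adjusted p = 4.56e-04), beside MT-CO1 and MT-CO2. In OV-L1-FGGY against OV-CTRL, 16 were higher and 19 lower, beside 32.5% and 36.2% (median -0.17). In the NVR-labelled libraries relative to OV-L1-FGGY with DMSO, 41 were higher and 11 lower, beside 38.2% and 35.4% (median 0.61).

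**Figure D5:**
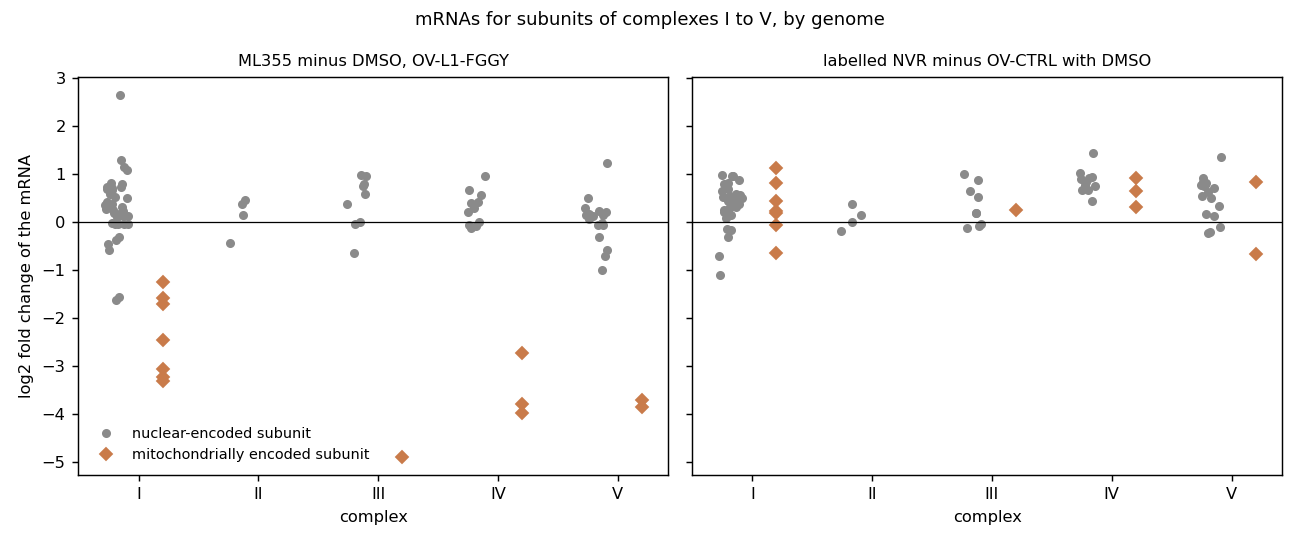
Log2 fold change of mRNAs for subunits of complexes I to V, nuclear-encoded (grey circles, spread sideways for legibility) and mitochondrially encoded (orange diamonds), 1 point per gene. After ML355 (left) the orange points lie between -4.89 and -1.25 and the grey ones between -1.62 and 2.65; in the NVR-labelled libraries relative to OV-CTRL (right) both kinds span 0.

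Among the 9 genes of mitochondrial transcription, 3 were lower and 1 higher after ML355, beside 23.5% and 21.3% of all genes. POLRMT, the polymerase, was at 0.25 (edgeR adjusted p = 0.0874) and TFAM, which packs and bends the promoter DNA, at -0.33 (edgeR adjusted p = 0.0315), so that neither passed. TFB2M, which opens the promoter, fell by 0.56 (edgeR adjusted p = 9.33e-04) and MTERF1, which binds downstream of the rRNA genes, by 1.1 (edgeR adjusted p = 2.37e-05), while MTERF3 rose by 1.24 (edgeR adjusted p = 1.05e-06) and TEFM, the elongation factor, was at 0.40 (edgeR adjusted p = 0.0999). In the NVR-labelled libraries relative to OV-CTRL, TFAM and TFB2M were lower (log2 fold changes -0.96 and -0.64, edgeR adjusted p = 2.1e-05 and 7.23e-04), 2 of 9 in all, with none higher, beside 15.3% and 14.5% of all genes. Between the vectors, 4 were higher and 3 lower, beside 32.5% and 36.2%, and the smallest adjusted p were those of TFB2M (log2 fold change 1.12) and POLRMT (-1.11) (edgeR adjusted p = 4.3e-07 and 4.96e-07).

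Of 24 tested genes of mitochondrial RNA processing and stability (25 in the list), 8 were lower and 3 higher after ML355, beside 23.5% and 21.3% of all genes. TRMT10C, a subunit of the RNase P that cuts the 5′ ends of tRNAs, fell by 1.76 (edgeR adjusted p = 8.98e-09) and FASTKD3 by 1.27 (edgeR adjusted p = 6.84e-07). LRPPRC fell by 0.38 (edgeR adjusted p = 0.00746), and its partner SLIRP was at 0.50 (edgeR adjusted p = 0.0594). Of the degradosome, the helicase SUPV3L1 rose by 0.55 (edgeR adjusted p = 1.98e-04), and the nuclease PNPT1 was at -0.27 (edgeR adjusted p = 0.0343). In the NVR-labelled libraries relative to OV-CTRL, 11 were lower and none higher, beside 15.3% and 14.5%, with the smallest adjusted p for PNPT1 (-0.80, edgeR adjusted p = 2.43e-05) and MTPAP, the poly(A) polymerase (-0.57, edgeR adjusted p = 5.82e-04). Between the vectors, 13 were higher and 3 lower, beside 32.5% and 36.2%, with the smallest adjusted p for FASTKD3 (2.66) and TRMT10C (1.76), edgeR adjusted p = 5.61e-11 and 1.44e-09.

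Of 16 genes that maintain mitochondrial DNA, 7 were higher and 4 lower after ML355, beside 21.3% and 23.5% of all genes. RRM2B, a ribonucleotide reductase subunit, and the ligase LIG3 rose by 1.8 and 1.5 (edgeR adjusted p = 4.91e-08 and 1.7e-07), and the polymerase POLG by 0.94 (edgeR adjusted p = 0.00127). The helicase TWNK fell by 1.64 (edgeR adjusted p = 1.41e-06), and the DNA-binding protein SSBP1 was at -0.36 (edgeR adjusted p = 0.0356). In the NVR-labelled libraries relative to OV-CTRL, 4 were lower and 1 higher, beside 15.3% and 14.5%, and between the vectors 9 were lower and 1 higher, beside 36.2% and 32.5%. The amount of mitochondrial DNA was not measured in these libraries.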

How the data were processed

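RNA of 12 libraries was analysed in 4 groups of 3 by their labels. Per the submitters' processing notes, the authors used STAR (2.5.3a), the build hg38 and HTSeq (0.11.2), and the values they deposited are whole-number read counts per gene that were not normalized. The labels name a TruSeq RNA kit, which captures poly(A) RNA without marking strand, and the study's methods an NEB kit. The annotation release, the strand setting and the handling of reads with several positions are not given in the sources used here. Total counts per library ran from 16242082 to 27004768. Gene positions come from GENCODE 44, which matched 57532 of the rows, and sequences from the hg38 genome.

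The 37 genes and the lists of nuclear genes were chosen with earlier results of these data known. Named beside the members are FGGY, the core transcription, stability and replication factors, and up to 2 genes per list and comparison with the smallest adjusted p. Of the 10 pseudogenes with a mean of at least 1 CPM, those with a ratio to the gene they copy are named. Other genes of the lists that are named were chosen after their values were seen.

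Counts were fitted in R 4.3.3 with edgeR 4.0.16 (filterByExpr, TMM scaling, 4 group means fitted with the robust option, quasi-likelihood test) and called at an adjusted p under 0.01 (Benjamini-Hochberg over 17849 genes). Of the 37 genes, 17 had a count and 16 were tested. The common biological coefficient of variation was 0.143. Shares and ratios of counts are given as values per library, with no test. Alternatives were DESeq2 1.42.0, limma voom 3.58.1 (the test the study's methods name), other scalings, filters and thresholds, a fit of only the groups compared, a replicate block and each library left out. On simulated data for ML355 against DMSO, where 200 of 17064 genes were changed (log2 size 1), edgeR found 143 of them (71.5%) and made 1 false call. In the data 44.8% of genes were called for ML355 against DMSO, a far larger share than was changed in the simulation. Its false calls therefore do not measure those in the data. Plots used matplotlib 3.10.9 in Python 3.11.15.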

Additional observations from a re-analysis of the deposited data

Results flagged for a closer look

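The effect of ML355 in OV-L1-FGGY and that of the libraries labelled NVR against OV-CTRL differed for 14 of the 16 tested genes, by a test of the difference itself in edgeR's quasi-likelihood fit (adjusted p under 0.01), beside 34.1% of all genes tested. The difference, ML355 minus NVR on the log2 scale, was -5.14 for MT-CYB, -4.90 for MT-CO2, -4.54 for MT-ATP6, -4.11 for MT-CO3, -3.76 for MT-ND3, -3.42 for MT-ND1, -3.38 for MT-CO1 and -3.30 for MT-ND2. It was -3.19 for MT-ATP8, which rests on few counts, -2.52 for MT-ND4, -2.39 for MT-ND6, -1.80 for MT-ND4L, -1.56 for MT-TP and -1.52 for MT-ND5. The difference for MT-ND4L did not pass without replicate 1 of OV-CTRL (adjusted p = 0.0122) or without a filter on low counts (adjusted p = 0.0453). The 2 inhibitors were given at different doses, and the libraries labelled NVR do not show the *FGGY* level of their label.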

How the results depend on the processing

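After ML355, 13 lower mRNAs and 2 higher rRNAs were found under every alternative run that kept all of these genes, except that MT-RNR1 is left out by a minimum log2 size of 1, which leaves 1 rRNA higher. Scaling by library size alone moved the median of all genes by -0.13 for ML355, -0.24 for the NVR-labelled libraries relative to OV-L1-FGGY with DMSO and -0.15 for them against OV-CTRL. With it the median over the mRNAs was -3.35, -0.24 and 0.17 in these comparisons, 1 mRNA was higher in the second, and 10 were higher between the vectors.

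For the NVR-labelled libraries relative to OV-L1-FGGY with DMSO, at least 10 counts in every library, which leaves out MT-ATP8, gave 2 lower mRNAs and a median of 0.14. With this filter MT-CYB and MT-ND2 did not pass (edgeR adjusted p = 0.0105 and 0.0183). Leaving out 1 library gave 1 to 2 higher mRNAs. That minimum size gave 1 lower and 0 higher mRNAs there, 1 higher against OV-CTRL, and 2 higher mRNAs and 0 lower rRNAs between the vectors. Against OV-CTRL, leaving out 1 library gave 0 to 1 lower mRNAs and medians of 0.26 to 0.45. Between the vectors it gave medians of 0.42 to 0.62, the highest without replicate 1 of OV-CTRL, and 2 rRNAs were lower without a filter or with only these groups fitted. The cause was not tested. Counting mRNAs only, the shares were 5.78%, 0.728%, 5.09% and 3.74% in place of 6.19%, 1.56%, 6.54% and 4.33% (OV-L1-FGGY with DMSO, ML355, labelled NVR, OV-CTRL).

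Libraries of equal replicate number did not deviate together (correlations of -0.35 to 0.17), so that the numbers were not taken to pair them. Between the libraries labelled NVR and OV-CTRL, those of unequal number had correlations of -0.48 to 0.43, which the main fit did not model. A replicate block gave 1 higher mRNA in place of 2 for the NVR-labelled libraries relative to OV-L1-FGGY with DMSO and moved no other count of members by over 1.5 times. MT-ATP8 had at most 38 counts in a library and MT-TF at most 15, so that counting error is large for both, and why 20 tRNAs had none was not tested.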
